A study of Homo sapiens with 22 samples.

Results

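The early response of tumour cells to an ALK inhibitor was followed in mice that carry human HGF, as the human transcripts of H3122 xenografts after 2 weeks of alectinib against those of therapy-naive xenografts in the same kind of host. H3122 is an established human lung adenocarcinoma line driven by a fusion of the receptor tyrosine kinase ALK, and alectinib blocks that kinase. Both groups grew in hHGF-NSG mice, the immunodeficient NSG strain with human HGF. The therapy-naive group (called naive below) had 3 samples and the treated group, given alectinib for 2 weeks, had 4. These 7 samples, chosen by their labels, are all of these groups among the 22 samples of the series. NSG mice without human HGF, naive (4 samples) or treated for 2 weeks (4 samples), served for the comparison between hosts. All tumours came from 1 cell line. The labels give neither the dose of alectinib nor how the human HGF gene is driven, and they do not say that each sample came from its own animal, so the p-values measure only the spread between these samples.

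ALK fusions signal without a ligand, mostly through the RAS and ERK cascade, PI3K and STAT3, and thereby keep tumour cells in cycle. HGF is a ligand made by stromal cells, and its receptor MET feeds the same cascades, so MET is known as a bypass around inhibited kinases in lung cancer. Mouse HGF activates human MET poorly, which is why hosts with human HGF are used. The normal airway and alveolar lineages of the lung depend on NKX2-1, and airway progenitors become secretory cells or multiciliated cells, whose many motile cilia are built under FOXJ1.

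The 7 human libraries held 14854822 to 17182482 reads. Mouse reads made up 6.81, 8.93 and 13.48% of all recovered reads in the naive and 17.42, 9.88, 15.45 and 8.71% in the treated samples. The first principal component of the 7 libraries (78.6% of the variance) separated naive from treated. hHGF-NSG naive replicate 3 stood apart on the second (6.1%). It had 3.59% mitochondrial reads against 8.97 and 8.17% in the other naive libraries, and its reads differed from theirs by a chi-square per degree of freedom of 51.6 and 41, where those 2 differed by 13.4. Epithelial markers were high throughout: EPCAM had 291 to 349 FPKM (fragments per kilobase of transcript, scaled by library size) in naive and 223 to 277 in treated libraries, and KRT8 811 to 1064 and 282 to 372. The human orthologues of host cell markers were uneven. Listed at 0 in all 7 libraries were POSTN, CD68, ADIPOQ and FABP4, and PTPRC, DCN, PDGFRB, COL3A1 and COL1A2 reached at most 0.0147, 0.0204, 0.0103, 0.0445 and 0.235 FPKM. Well above 0 in naive libraries were COL1A1 (25.3 to 102 FPKM) and LUM (10.2 to 16.4) of the fibroblast list and, in both groups, the endothelial genes KDR (means of 3.44 and 3.64 FPKM) and CDH5 (1.82 to 2.56 and 1.24 to 2.09). Their part in the results was not tested.

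Changes after 2 weeks were widespread and went both ways. Of 16029 genes tested with limma on log2(FPKM + 1), 8673 (54.1%) passed an adjusted p of 0.05, 4414 higher (27.5%) and 4259 lower (26.6%). A change of at least 2-fold was seen in 1505 genes (9.39%) that rose and 1175 (7.33%) that fell, and a change of at least 10-fold in 96 and 43. In 8108 of the called genes the naive and treated libraries did not overlap. Among all 16029 tested genes, called or not, 4500 (28.1%) were higher without overlap and 4442 (27.7%) lower without overlap. The median log2 change over all tested genes was 0.03. The authors' FPKM are scaled between libraries, and with plain read totals in place of that scaling the median was 0.22 and the calls split into 6130 higher and 2912 lower, so changes smaller than this shift have no firm direction. With the main scaling 27.5% of all tested genes were called higher and 26.6% lower, and list counts below stand against these shares. In bulk tissue, fewer cells that express a gene and less RNA per cell cannot be told apart. All log2 changes below are of log2(FPKM + 1), a scale on which low genes change less than in FPKM, and "rose" and "fell" mean an adjusted p under 0.05 from limma with Benjamini-Hochberg adjustment over all tested genes.

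The transcripts that report ERK activity fell together. All 20 listed feedback regulators and targets of ERK fell, 16 of them at least 2-fold, with a median log2 change of -1.91, and 19 fell with plain read totals or without hHGF-NSG naive replicate 3. DUSP6, the phosphatase that inactivates ERK and is induced by it, had 146, 122 and 113 FPKM in the naive libraries and 10.9, 5.93, 13.5 and 7.38 after 2 weeks (13.5-fold lower mean, log2 change -3.67, SE 0.26, adjusted p = 1.87e-10). The treated libraries lay far below all naive ones but differed among themselves, with replicates 1 and 3 above replicates 2 and 4. The same division held for SPRY4, a feedback inhibitor of RAS signalling, at 1.15 and 1.71 FPKM in treated replicates 1 and 3 and 0.5 and 0.591 in replicates 2 and 4, against 6.42 to 8.24 in naive tumours. FOSL1, an AP-1 subunit stabilised by ERK, followed it with 1.86 and 3.02 against 0.393 and 0.209 FPKM, whereas ETV4 and MYC did not. Replicates 1 and 3 also had the higher shares of mouse reads (17.42 and 15.45% against 9.88 and 8.71%), and a link was not tested. The ETS factor ETV4 went from 27.3, 26 and 23.5 to 0.703, 0.484, 0.319 and 0.437 FPKM (-4.17, SE 0.15, adjusted p = 7.8e-15), and its paralogue ETV5 fell by 2.53 on the log2 scale. PHLDA1 and IER3, immediate targets of growth factor signals, fell 19.4-fold and 9.91-fold in mean FPKM. Cyclin D1 (CCND1), which couples ERK to the cell cycle, went from 332, 353 and 434 to 83, 69.1, 80.5 and 79 FPKM (-2.24, SE 0.11, adjusted p = 9.37e-13).

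**Figure D1:**
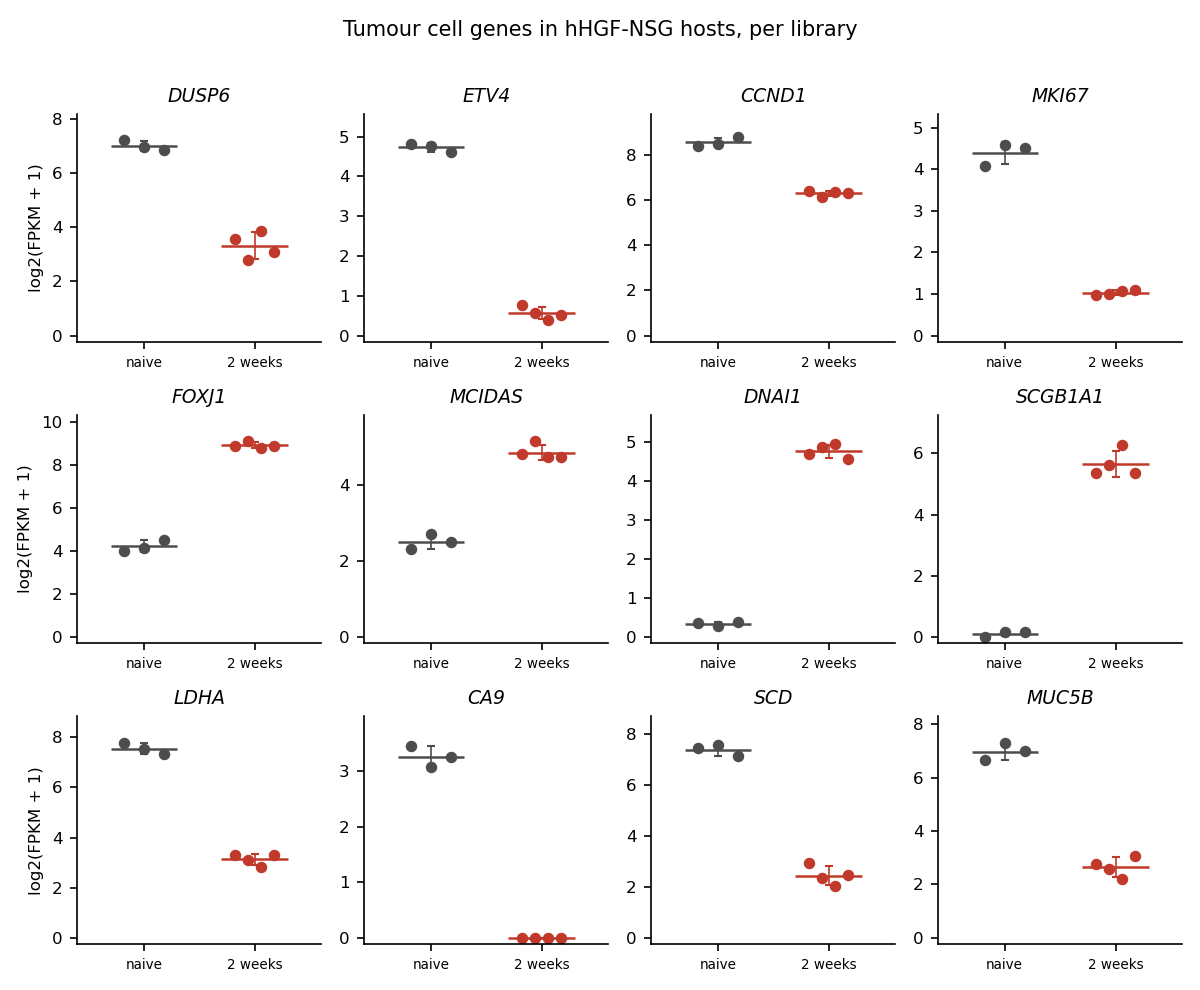
Level of 12 genes in each library as log2(FPKM + 1), with 3 naive (grey) and 4 treated (red) hHGF-NSG libraries, the mean as a horizontal bar and the SD as a whisker. In none of the 12 genes do the naive and treated libraries overlap: DUSP6, ETV4, CCND1, MKI67, LDHA, CA9, SCD and MUC5B are lower and FOXJ1, MCIDAS, DNAI1 and SCGB1A1 higher after 2 weeks. Of all 16029 tested genes, 28.1% were higher and 27.7% lower without overlap.

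The receptors of the cells were re-ordered rather than moved one way. Of 18 receptor tyrosine kinases tested, 7 rose and 8 fell (9 and 7 with plain read totals). The ALK transcript itself had 3.67, 4.02 and 3.44 FPKM in naive and 2.54, 2.96, 3.51 and 2.16 in treated libraries, which overlap. Its change of -0.32 (SE 0.12, adjusted p = 0.0317) lost the call in 8 of 14 other settings, with adjusted p up to 0.415 (plain read totals), among them those without hHGF-NSG naive replicates 1 or 2 or 2 weeks replicates 1 or 4 (-0.33, -0.28, -0.29 and -0.24). MET fell from 24.6, 28.8 and 26.9 to 9.01, 9.31, 7.95 and 9.34 FPKM, and its relative MST1R, the receptor of the HGF-like ligand MST1, from 6.92, 8.77 and 11.4 to 1.83, 2, 2.1 and 1.27 (log2 changes -1.49 and -1.82, SE 0.10 and 0.16, adjusted p = 8.58e-11 and 8.4e-09). EGFR fell from 10.8, 13.1 and 14.1 to 5.43, 5.63, 4.7 and 5 FPKM. In contrast ERBB2, a co-receptor of the EGFR family, rose from 11.7, 13.6 and 19.2 to 46.5, 53.3, 49.9 and 52.4 FPKM (3.41-fold, 1.73, SE 0.17, adjusted p = 2.33e-08), and its partner ERBB3 rose from 23.7, 29.3 and 26.4 to 40.5, 42.2, 38.1 and 40.8 FPKM. The order of MET and ERBB2 thereby turned: MET lay above ERBB2 in every naive library and below it in every treated one. ERBB3 was close to MET in the naive libraries and above it in every treated one. Both ERBB2 and ERBB3 lay above EGFR in every library of both groups. The largest rise among the receptors was that of RET, the receptor of the GDNF family, from 0.63, 0.464 and 0.603 to 9.22, 12.6, 14.7 and 13.8 FPKM (22.2-fold, 3.10, SE 0.26, adjusted p = 2.62e-09). KIT, the receptor of stem cell factor, rose from 0.876, 0.742 and 0.822 to 7.47, 7.9, 10.2 and 9.63 FPKM (10.8-fold).

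**Figure D2:**
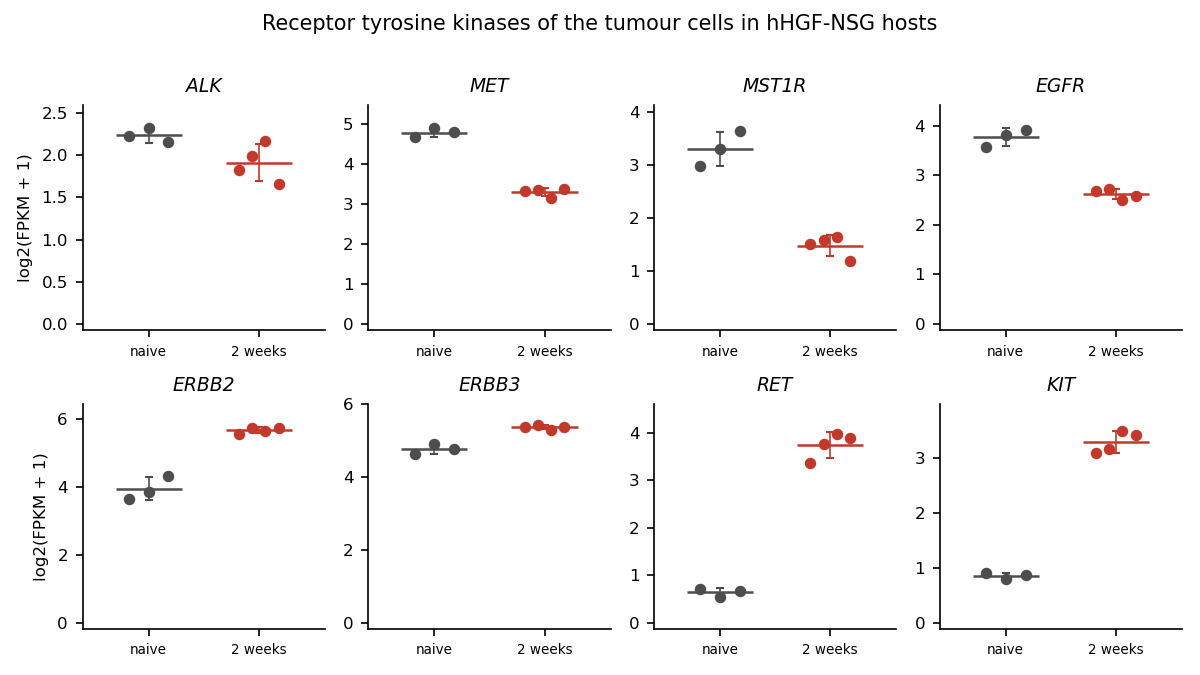
Level of 8 receptor tyrosine kinases in each library as log2(FPKM + 1), with naive libraries in grey, treated ones in red, the mean as a bar and the SD as a whisker. MET, MST1R and EGFR are lower and ERBB2, ERBB3, RET and KIT higher in all 4 treated libraries than in any naive one, while ALK overlaps. Of all 16029 tested genes, 28.1% were higher and 27.7% lower without overlap.

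Most of the measured EGFR ligands fell, and genes around HGF and MET were mixed by role. Of 4 EGFR family ligands above the filter on low values, TGFA (45.8 to 53.1 FPKM in naive, 23.1 to 25.7 in treated libraries), AREG and HBEGF fell and BTC rose, though HBEGF did not pass without hHGF-NSG naive replicate 3 (-0.64, adjusted p = 0.0635, against -0.84). Of 13 genes that activate HGF or couple MET to its pathways, 7 fell and 1 rose (TMPRSS13, a membrane protease, by 0.69). The proteases hepsin (HPN, -0.35, adjusted p = 0.0894) and matriptase (ST14, -0.12, adjusted p = 0.552) were not called. These 3 were named after their values were seen. Urokinase (PLAU), a protease that can activate HGF, went from 31.7, 23 and 42.8 to 3.61, 2.15, 1.77 and 1.79 FPKM (13.9-fold lower, -3.32, SE 0.34, adjusted p = 6.96e-08), and its receptor PLAUR from 13.8, 11.7 and 15.7 to 2, 1.1, 1.05 and 1.46. The phosphatase SHP2 (PTPN11), which links receptors to RAS, fell from 31.2, 38.7 and 36.8 to 16.7, 17, 15.5 and 17 FPKM. The inhibitors of HGF activation SPINT1 and SPINT2 were not called (SPINT1 only without hHGF-NSG naive replicate 2, at -0.45) and had overlapping libraries, with 92.2 to 135 against 82.5 to 101 FPKM and 132 to 212 against 141 to 182. Human HGF itself stayed under the filter in this table, at 0.0978, 0.187 and 0.301 FPKM in naive and 0.276, 0.178, 0.0926 and 0.195 in treated libraries. The hosts carry human HGF, and whether these reads came from host or tumour cells was not tested.

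The cell cycle programme fell as a whole. Of 24 genes of the G1/S transition and DNA replication 23 fell, 22 at least 2-fold (median -1.62), and all 24 genes of G2 and mitosis fell, 22 at least 2-fold (median -2.05). The 1 exception was the replication licensing factor CDT1, which rose by 0.78 (12 to 21.3 FPKM, adjusted p = 0.000109) and is named here after its value was seen. RRM2, the regulated subunit of ribonucleotide reductase, went from 63.3, 54.5 and 39.6 to 2.19, 1.42, 1.51 and 2.17 FPKM (28.8-fold lower). The proliferation marker MKI67 went from 16, 22.8 and 21.8 to 0.963, 0.992, 1.09 and 1.13 FPKM (19.4-fold lower, -3.36, SE 0.14, adjusted p = 6.1e-14). MYBL2, a transcription factor of dividing cells, fell 22-fold, thymidine kinase TK1 13.3-fold and Aurora kinase B (AURKB) 16.4-fold in mean FPKM. The brakes of the cycle did not move as 1 group, and 7 of the 12 genes of the D cyclins, their kinases, CDK inhibitors and RB family fell while 2 rose. Of the CDK inhibitors, p18 (CDKN2C) fell by 0.85 (adjusted p = 0.000297), p21 (CDKN1A) with 81.3 to 102 against 61.3 to 75.9 FPKM and p27 (CDKN1B) with 61.6 to 76.1 against 42.2 to 64.2 were not called (-0.40 and -0.32). CDKN1A passed with only the 7 libraries fitted, and CDKN1B with voom and without hHGF-NSG naive replicate 2 or 2 weeks replicates 2 or 4 (-0.38 to -0.40). The inhibitor p57 (CDKN1C) was lower by 0.91 but lost the call without hHGF-NSG naive replicate 3 (-0.64, adjusted p = 0.0859). RBL2, the pocket protein p130 that holds resting cells out of the cycle, rose from 4.84, 6.03 and 6 to 9.95, 11.5, 10.2 and 9.4 FPKM (0.77, SE 0.11, adjusted p = 3.35e-06), while its relatives RBL1 and RB1 fell by 1.26 and 0.60. CDKN2C and RB1 were named after their values were seen.

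The 250 bases before the start of MKI67 are shown because they hold TTTGAA. These are the letters of the cell cycle homology region CHR, through which DREAM and MYBL2 complexes act on mitotic genes. The window lies at chr10:128126424-128126673 on the minus strand (RefSeq, GRCh38.p14), and the capitals mark TTTGAA, searched on both strands, 47 and 29 bases before the start.
MKI67: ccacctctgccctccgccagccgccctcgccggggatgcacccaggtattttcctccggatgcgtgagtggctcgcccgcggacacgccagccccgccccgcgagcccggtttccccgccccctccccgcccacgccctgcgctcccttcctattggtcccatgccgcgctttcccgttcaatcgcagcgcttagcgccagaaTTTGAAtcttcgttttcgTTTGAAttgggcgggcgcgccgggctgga
Only 18 of the 24 mitotic genes (75%) had a RefSeq window, so a share of the list with this motif is not given. Among all 9524 tested genes with a window 1109 (11.6%) held it, and a match does not show binding.

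The lists with the highest medians were those of motile cilia and of the cells that carry many of them. Among regulators of the multiciliated cell 13 of 15 tested genes rose, 10 at least 2-fold (median 2.10). FOXJ1, the master regulator of motile cilia, went from 15.1, 16.5 and 21.9 to 476, 552, 444 and 466 FPKM (27.2-fold, 4.70, SE 0.18, adjusted p = 1.46e-14) and so became 1 of the 6 most abundant genes among those that rose at least 2-fold. MCIDAS, the co-regulator that starts centriole amplification, went from 3.95, 5.58 and 4.66 to 27.1, 35, 25.6 and 25.6 FPKM (5.99-fold, 2.35, SE 0.13, adjusted p = 5.27e-12). Its neighbour CCNO, a cyclin needed for the many basal bodies, went from 8.82, 8.76 and 11.4 to 247, 315, 227 and 263 FPKM, and CDC20B, which lies in the same locus, from 0.64, 0.393 and 0.359 to 99.5, 117, 98.3 and 97.6. The factors FOXN4 (0.0377 to 0.213 against 23.4 to 30.9 FPKM) and TP73 (1.08 to 2.02 against 9.09 to 11.3), both upstream in this lineage, rose as well (4.64 and 2.10 on the log2 scale). GMNC, the relative of MCIDAS that acts first in normal airway cells, was not measurable, with 0 reads in all 7 libraries but for 1 read in a treated one. The centriole assembly gene SASS6 fell by 0.62 (adjusted p = 0.000225) and E2F4, the partner of MCIDAS, did not pass (-0.07, SE 0.10). Both are named after their values were seen.

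The parts of the cilium rose in step with these regulators. Of the axonemal dynein arm genes 18 of 19 rose (median 2.61), of the radial spoke and central pair genes 19 of 19 (median 2.78), of the dynein assembly factors 10 of 11 (median 2.51) and of the intraflagellar transport genes 18 of 19 (median 1.40), and none of these 68 genes fell. DNAI1, an intermediate chain of the outer dynein arm, went from 0.286, 0.217 and 0.298 to 24.8, 28.3, 29.8 and 22.6 FPKM (98.8-fold, 4.43, SE 0.18, adjusted p = 3.16e-14). RSPH4A, a radial spoke head protein, went from 0.962, 0.231 and 0.284 to 40.7, 40.4, 32.6 and 36.7 FPKM (4.72, SE 0.15, adjusted p = 8.57e-16). ZMYND10, a chaperone that preassembles dynein arms in the cytoplasm, rose 62.8-fold, and DNAAF1, another assembly factor, 129-fold in mean FPKM from 0.145 ± 0.0144 to 18.7 ± 3.2 (SD, n = 3 and 4). DNAH5, the outer arm heavy chain, rose from 1.32 to 1.89 FPKM in naive libraries to 8.61 to 13.4 in treated ones. IFT57 rose 10.5-fold from 3.04, 2.59 and 4.13 to 36.8, 37.2, 28.6 and 34.1 FPKM, more than the core transport subunit IFT88 (1.17 to 1.55 against 3.86 to 4.37), which primary cilia also need. The genes of this group that did not pass were DNAH2, DNAAF5 and KIF3B (-0.09, 0.03 and -0.16), a dynein heavy chain of the inner arm, an assembly factor and a transport motor subunit, named after their values were seen. SPAG6, a central pair protein, was under the filter with 1 read in 1 treated library and 0 in the others. HYDIN, another central pair protein, rose from 0.0402 to 0.0979 FPKM to 2.41 to 3.33.

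Promoters of 3 of these genes are shown because they hold GTTGCCA, the core bound by RFX factors, which act with FOXJ1 on cilia genes. Each is the 250 bases before the start (RefSeq, GRCh38.p14), with the match on either strand in capitals. RSPH4A lies at chr6:116616229-116616478 on the plus strand with the match 51 bases before the start, MCIDAS at chr5:55227316-55227565 on the minus strand with the match 114 bases before it, and DNAI2, an outer arm intermediate chain that rose by 1.86, at chr17:74273984-74274233 on the plus strand with the match 178 bases before it.
RSPH4A: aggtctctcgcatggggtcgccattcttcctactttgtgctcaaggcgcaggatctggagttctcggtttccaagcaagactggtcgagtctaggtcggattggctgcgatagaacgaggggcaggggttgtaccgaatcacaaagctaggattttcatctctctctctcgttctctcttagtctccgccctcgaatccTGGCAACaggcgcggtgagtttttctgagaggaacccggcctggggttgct
MCIDAS: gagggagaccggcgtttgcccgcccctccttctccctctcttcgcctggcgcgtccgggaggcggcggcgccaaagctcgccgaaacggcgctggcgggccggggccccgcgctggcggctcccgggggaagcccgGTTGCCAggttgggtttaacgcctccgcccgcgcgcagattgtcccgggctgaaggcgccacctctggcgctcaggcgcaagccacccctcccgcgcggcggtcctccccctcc
DNAI2: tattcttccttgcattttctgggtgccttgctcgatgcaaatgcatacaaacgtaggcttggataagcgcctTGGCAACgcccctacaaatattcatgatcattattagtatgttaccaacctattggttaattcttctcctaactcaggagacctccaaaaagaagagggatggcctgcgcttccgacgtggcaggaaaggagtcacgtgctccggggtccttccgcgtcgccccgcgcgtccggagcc
Of the radial spoke and central pair genes 16 of 19 had a RefSeq window, and 4 of these (25%) held this core in the 250 bases. Of the regulators 12 of 15 had a window and 2 (16.7%) held it, where among all 9524 tested genes with a window 425 (4.46%) did. A gene with several starts counted as holding a motif if any of its windows did. A match is a description of the letters and not a binding site, and fewer than 80% of the dynein arm and assembly factor genes had a window.

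**Figure D3:**
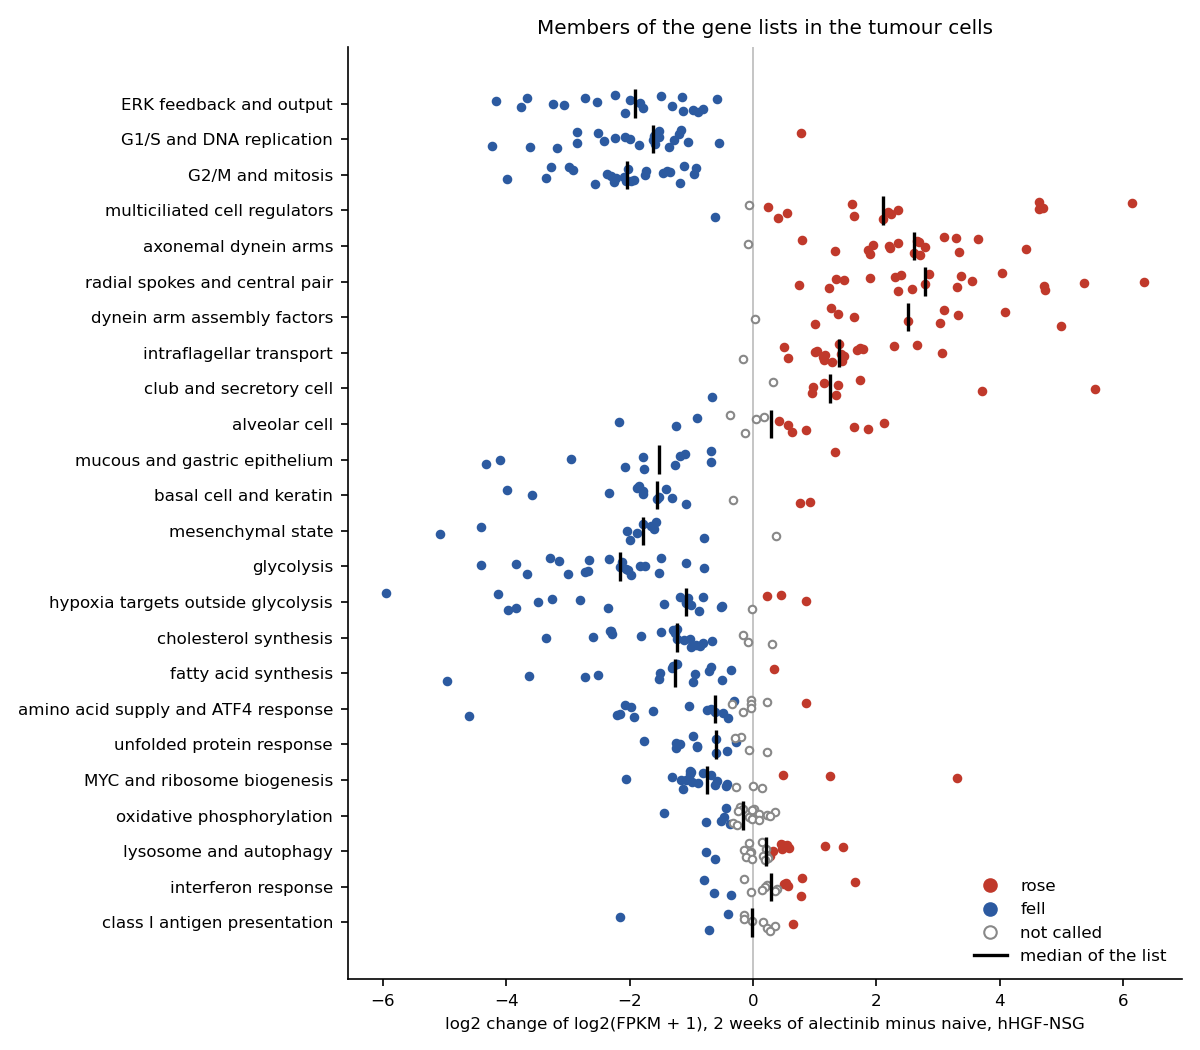
Log2 change of every tested member of 24 gene lists, 1 point per gene, red where it rose, blue where it fell and open where it was not called, with the median of the list as a black bar. The 4 lists of cilium parts have medians of 1.40 to 2.78, and the ERK, cell cycle and glycolysis lists medians of -1.62 to -2.15.

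Secretory and alveolar genes rose in part, and mucous genes fell. Of 10 club cell genes 8 rose and 1 fell (WFDC2, by 0.66, named after its value was seen, and not called with plain read totals or without hHGF-NSG naive replicate 1, at -0.49). SCGB1A1, the secretoglobin that defines club cells, had 0, 0.113 and 0.116 FPKM in naive libraries, which is 0, 1 and 1 reads, and 40.5, 48.1, 76.5 and 40 after 2 weeks. SCGB3A1, another airway secretoglobin, rose from 19.1, 9.99 and 19.2 to 196, 225, 180 and 273 FPKM (13.6-fold, 3.72, SE 0.29, adjusted p = 8.35e-10). The club cell monooxygenase CYP2F1 was listed at 0 in the naive libraries and at 1.33 to 1.76 FPKM in treated ones, at least 23-fold higher if 3 reads per naive library are allowed for. NKX2-1, the lung lineage factor, rose from 84.8, 66.2 and 88.5 to 215, 248, 280 and 248 FPKM (3.1-fold, 1.63, SE 0.16, adjusted p = 2.25e-08). Of 14 alveolar genes 7 rose and 3 fell, and 4 were not called. Those that fell beside FOXA2 were CAV1 (-0.91) and NAPSA (-1.25). AGER, ABCA3, SLC34A2 and CEBPA were not called (0.17, -0.37, -0.13 and 0.04). All of these but FOXA2 are named after their values were seen. HOPX, a factor of alveolar type 1 cells, rose by 2.13 and the surfactant gene SFTPA2 by 1.86, from 0.268 to 0.475 FPKM to 3.28 to 4.5, whereas FOXA2, a factor that restrains mucus in airway cells, fell from 9.05, 8.28 and 8.06 to 1.17, 1.26, 1.07 and 0.929. Of 12 mucous and gastric genes 11 fell (9 with plain read totals), 9 at least 2-fold (median -1.52), and AGR3 alone rose (1.33, named after its value was seen). The gel-forming mucins MUC5B (101, 155 and 126 against 5.74, 4.93, 3.57 and 7.49 FPKM) and MUC2 (27.5, 33.3 and 24.5 against 0.728, 0.602, 0.598 and 0.897) fell 23.5-fold and 40.3-fold. The trefoil peptide TFF3, a mucus partner, fell from 1076, 849 and 957 to 269, 247, 254 and 359 FPKM. MUC5AC overlapped between the groups (10.4 to 17.9 against 6.28 to 11.5), and its fall of 0.68 (adjusted p = 0.0282) did not pass without hHGF-NSG naive replicate 2 (-0.51, adjusted p = 0.146), nor in 5 of the 13 other settings, among them those without hHGF-NSG naive replicate 3 or 2 weeks replicates 2 or 3 (-0.66, -0.57 and -0.61).

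Keratins of several kinds fell, as did matrix genes and marks of a basal or mesenchymal state. The keratins KRT7, KRT8, KRT18 and KRT19, markers of the epithelial tumour cells, were among them (-1.31, -1.56, -1.78 and -2.34). The fall was thus not limited to basal keratins. Of 15 basal and keratin genes 12 fell, all at least 2-fold (median -1.56), and the hair keratins KRT81 and KRT86 rose by 0.92 and 0.76 (named after their values were seen). KRT17, a keratin of stressed and basal epithelium, had 107, 72.7 and 235 FPKM in naive and 9.2, 5.49, 6.54 and 6.29 in treated libraries (20.1-fold lower, -3.99, SE 0.55, adjusted p = 3.87e-06). KRT6A behaved alike, with 14.3, 8.77 and 33.3 against 0.307 to 0.517 FPKM. In both genes hHGF-NSG naive replicate 3 was the highest library. Of 11 mesenchymal genes 10 fell, 9 of them at least 2-fold (median -1.79), and TWIST1 did not pass (0.37, SE 0.22, adjusted p = 0.169) but rose without hHGF-NSG naive replicate 3 (0.60, adjusted p = 0.0354). Tenascin C (TNC), a matrix protein of wounds and tumours, went from 44.9, 55.1 and 62.8 to 0.801, 0.736, 0.371 and 0.648 FPKM (84.9-fold lower, -5.07, SE 0.17, adjusted p = 1.49e-15), and the collagen cross-linking enzyme LOX fell 44.6-fold. Vimentin (VIM) was low already, at 4.85, 2.69 and 7.2 FPKM, and fell to 0.2 to 0.523. Of 14 epithelial adhesion genes 5 rose and 5 fell, but 7 rose and 1 fell with plain read totals, so the balance depends on the scaling. Claudin 3 (CLDN3) rose from 32.2 to 55.6 to 104 to 130 FPKM and occludin (OCLN) by 1.28, claudin 1 (CLDN1) fell by 1.18, and the falls of EPCAM and CDH1 (-0.37 and -0.38) did not pass with plain read totals (-0.12 and -0.14), nor did EPCAM without hHGF-NSG naive replicates 1 or 3 or 2 weeks replicate 3 (-0.33, -0.32 and -0.31). COL1A1, the collagen of fibroblasts, had 31.4, 25.3 and 102 FPKM in naive and 5.65 to 7.77 in treated libraries. The summed FPKM of the 10 fibroblast orthologues was 42 to 112 in naive and 6.48 to 8.41 in treated libraries, and apart from COL1A1 and LUM (10.2 to 16.4 against 0.463 to 0.827) they stayed under the filter.

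The YAP and TEAD factors, which sense cell shape, and their targets were divided as well. NT5E fell from 55.4, 61.4 and 47.2 to 8.13, 7.19, 6.57 and 8.97 FPKM and CYR61 from 10.9 to 21.7 to 3.13 to 3.28, while CTGF rose from 18.6, 16.3 and 20.1 to 86.2, 102, 60 and 82.4 (4.5-fold). Of 12 genes tested, factors and targets together, 7 fell and 2 rose (7 and 5 with plain read totals). Of the factors themselves WWTR1 and TEAD4 fell by 1.87 and 1.80 and YAP1 and TEAD1 were not called (0.18 and 0.17). Both rose with plain read totals (0.41 and 0.39) and without hHGF-NSG naive replicate 2 (0.24 and 0.29). All but YAP1 were named after their values were seen. Among Notch ligands DLL1, a ligand presented by differentiating multiciliated cells, went from 2.01, 1.64 and 2.79 to 32.1, 44.9, 44.3 and 38.1 FPKM (18.5-fold), and JAG1 rose by 1.14. The receptor NOTCH1 fell from 3.12 to 4.89 FPKM to 1.21 to 1.73. Of 17 Notch pathway genes tested, 6 rose and 3 fell (7 and 2 with plain read totals), beside 27.5 and 26.6% of all tested genes. The Notch target genes were divided. HES5 and HEY1 rose (2.53 and 1.16) and NRARP fell by 0.96 (adjusted p = 0.000109). HES1 was lower by 0.49, a fall that did not pass with plain read totals (-0.25). HES4, HEY2 and HEYL were not called (-0.32, 0.29 and 0.23). These last genes and NRARP were named after their values were seen. Of 16 genes of the BMP and TGF-beta response 5 rose and 7 fell (5 and 5 with plain read totals). Of the inhibitors of differentiation that BMP signals induce, ID1 and ID4 rose by 0.89 and 1.35 together with BMP4 (1.13), and TGFB1 and TGFBR2 fell by 1.26 and 0.97. The ligand BMP7 (mean of 11.6 against 6.84 FPKM), the feedback inhibitor SMAD7 and the receptors BMPR1A, BMPR1B and BMPR2 fell by 0.70, 0.80, 0.33, 0.40 and 0.50, all 5 named after their values were seen. BMPR1A and BMPR1B lost the call with plain read totals (-0.16 and -0.21), and BMPR1B without hHGF-NSG naive replicate 2 (-0.30).

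Glycolysis and the response to low oxygen fell by a wide margin. All 21 glycolysis genes fell, 20 at least 2-fold (median -2.15), and 18 of 22 other hypoxia targets fell, 13 at least 2-fold (median -1.09). The glucose transporter SLC2A1 went from 161, 135 and 149 to 19.8, 16.8, 16.1 and 18.2 FPKM, and hexokinase 2 (HK2) from 98.8, 102 and 108 to 7.57, 5.92, 5.31 and 6.22. Lactate dehydrogenase LDHA went from 219, 184 and 159 to 8.82, 7.63, 6.16 and 8.87 FPKM (23.8-fold lower, -4.41, SE 0.16, adjusted p = 8.01e-15). GAPDH, often taken as a constant reference gene, fell from 3079, 2571 and 2378 to 333, 273, 247 and 351 FPKM (8.89-fold lower). A second transporter, SLC2A3, all but vanished, with 13.8, 10.6 and 11.2 FPKM against 0.0374, 0, 0.0197 and 0. Carbonic anhydrase CA9, a classical hypoxia marker, had 9.9, 7.45 and 8.46 FPKM in naive libraries and 0 reads in all 4 treated ones, at least 84.3-fold lower if 3 reads per treated library are allowed for. The peptide adrenomedullin (ADM) had 82.2, 64.8 and 80.3 FPKM against 0.233, 0.701, 0.0669 and 0, and the lipase inhibitor ANGPTL4 15.5 to 27.3 against 0.255 to 0.277. NDRG1, a stress gene, fell 15.2-fold. The oxygen-regulated factor gene HIF1A fell by 1.44, and the angiogenic factor VEGFA only by 0.88 (23.2, 20.8 and 26.5 against 12.4, 10.4, 17.1 and 9.98 FPKM). The exceptions EFNA1, ANKRD37 and ARNT rose by 0.86, 0.45 and 0.23 and P4HA2 did not pass (-0.02). The rise of ARNT was lost in 6 of 14 settings, 5 of them with 1 library left out (hHGF-NSG naive replicates 1 or 3, 2 weeks replicates 2, 3 or 4, at 0.19 to 0.23). All 4 are named after their values were seen.

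Promoters of 3 of these genes are shown because they hold ACGTG, the core of the element through which HIF acts. They are the 250 bases before the start (RefSeq, GRCh38.p14), with the core on either strand in capitals. CA9 lies at chr9:35673678-35673927 on the plus strand with the core 18 bases before the start. ALDOC, an aldolase that fell by 3.30, lies at chr17:28576896-28577145 on the minus strand with cores that overlap on opposite strands 240 and 239 bases before it and a further core 28 bases before it. ANGPTL4 lies at chr19:8363905-8364154 on the plus strand with the core 234 bases before it.
CA9: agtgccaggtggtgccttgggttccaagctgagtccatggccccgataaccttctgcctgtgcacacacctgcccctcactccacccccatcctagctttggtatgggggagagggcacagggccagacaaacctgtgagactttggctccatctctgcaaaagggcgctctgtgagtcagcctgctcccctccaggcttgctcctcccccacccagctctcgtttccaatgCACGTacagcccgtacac
ALDOC: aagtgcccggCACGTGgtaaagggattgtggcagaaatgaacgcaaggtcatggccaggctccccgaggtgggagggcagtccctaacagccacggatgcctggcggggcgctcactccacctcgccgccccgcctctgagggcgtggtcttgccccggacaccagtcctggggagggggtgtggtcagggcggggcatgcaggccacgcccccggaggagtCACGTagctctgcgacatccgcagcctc
ANGPTL4: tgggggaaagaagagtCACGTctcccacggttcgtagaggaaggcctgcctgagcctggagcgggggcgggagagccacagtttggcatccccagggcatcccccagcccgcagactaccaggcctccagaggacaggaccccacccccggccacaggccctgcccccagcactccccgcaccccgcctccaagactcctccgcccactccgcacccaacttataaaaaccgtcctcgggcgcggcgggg
Of the glycolysis genes 20 of 21 had a window and 13 of these (65%) held the core, of the other hypoxia targets 19 of 22 and 9 (47.4%), and of all 9524 tested genes with a window 2773 (29.1%).

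Lipid and amino acid supply fell with them. Of 21 cholesterol genes 18 fell, 14 at least 2-fold (median -1.23), and of 16 fatty acid genes 15 fell (median -1.27). INSIG1, which holds the SREBP complex in the endoplasmic reticulum, went from 94.3, 89.8 and 71.9 to 15.3, 11.6, 13 and 13.4 FPKM (6.41-fold lower), and DHCR7, an enzyme of the last steps of cholesterol synthesis, fell by 2.30. The desaturase SCD went from 177, 190 and 139 to 6.61, 4.05, 3.1 and 4.47 FPKM (37-fold lower, -4.96, SE 0.22, adjusted p = 1.51e-13), and fatty acid synthase FASN fell 7.12-fold. SLC7A5, the transporter of large neutral amino acids, went from 453, 414 and 443 to 16.8, 16.6, 17.1 and 17.2 FPKM (25.8-fold lower), and its partner SLC3A2 fell by 2.16. Of 21 genes of amino acid supply and the ATF4 response 14 fell and 1 rose (CEBPB, by 0.86, named after its value was seen), while ATF4 itself changed by -0.31, a call lost with plain read totals (-0.06, adjusted p = 0.575) and without hHGF-NSG naive replicate 1 (-0.23). Of 15 genes of the unfolded protein response 11 fell (median -0.60), among them the chaperone HSPA5 (190 to 220 against 83.9 to 96.8 FPKM).

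The MYC family changed its make-up. MYC, a driver of growth genes, went from 86.6, 78.3 and 81.2 to 31.9, 29.9, 31.6 and 35.5 FPKM (-1.32, SE 0.13, adjusted p = 3.23e-08), and MYCN from 4.94, 8.61 and 9.15 to 0.797, 0.915, 0.908 and 1.43. MYCL rose from 0.831, 0.983 and 1.43 to 15.7, 23.5, 16.3 and 24 FPKM (18.3-fold), and MXD4, an antagonist of MYC, rose by 1.24. Of 22 genes of this family and of ribosome biogenesis 16 fell and 3 rose (the third is MAX, the common partner, by 0.48). Genes of oxidative phosphorylation showed no such fall: 6 of 21 were called, all lower, 1 by 2-fold or more (cytochrome c, CYCS, by 1.45), but with plain read totals 5 rose and 4 fell, so the list has no firm direction. Of 24 lysosome and autophagy genes 10 rose and 2 fell (16 and 1 with plain read totals), led by the cathepsins CTSS (19.2, 18 and 17.8 against 61.4, 51, 43.1 and 55 FPKM) and CTSH (1.16). The mitochondrial transcript MT-ND3 rose by 1.33, and without hHGF-NSG naive replicate 3, where it had 1147 FPKM against 5665 and 4404 in the other naive libraries, its change was 0.62 (adjusted p = 0.164).

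Survival genes moved in both directions, as did all tested genes (27.5% higher and 26.6% lower). Of 14 BCL2 family genes 5 rose and 4 fell (7 and 2 with plain read totals). BCL-XL (BCL2L1), which blocks cell death, rose from 16.1, 16.2 and 18.7 to 38.6, 38.9, 34.2 and 41.9 FPKM (1.13, SE 0.12, adjusted p = 8.48e-08), and so did the death-promoting BMF, from 15.9, 16.9 and 20.9 to 50.9, 50.2, 40.1 and 46.9. NOXA (PMAIP1) and BID, both death-promoting, fell by 1.56 and 1.36. BIM (BCL2L11), a mediator of death under kinase inhibitors whose protein ERK controls, had 6.11 to 7.2 against 6.41 to 8.3 FPKM and was not called, except with plain read totals (0.37, adjusted p = 0.0205). MCL1 had the division of DUSP6, SPRY4 and FOSL1 inside the treated group, at 481 and 608 FPKM in replicates 1 and 3 against 342 and 304 in replicates 2 and 4. Its fall of 0.56 (adjusted p = 0.0227) was lost in 7 of 14 settings, among them those without hHGF-NSG naive replicates 2 or 3 or 2 weeks replicates 2 or 4 (-0.55, -0.53, -0.46 and -0.41). PDK4, a FOXO target that shuts glucose carbon out of mitochondria, rose from 0.85, 1 and 0.819 to 15.8, 20.9, 13.1 and 14.4 FPKM (18.1-fold), and PIK3IP1, an inhibitor of PI3K, rose by 1.76. Of the 20 genes of that response 8 rose and 6 fell (9 and 2 with plain read totals), beside 27.5 and 26.6% of all tested genes. Among binding proteins of insulin-like growth factors IGFBP2 rose 4.65-fold and IGFBP3 fell 141-fold, from 214, 154 and 211 to 1.65, 1.89, 0.967 and 0.984 FPKM. Of 17 p53 targets 6 rose and 7 fell. SPATA18, a mitochondrial quality gene that is also strong in ciliated cells, rose by 4.16, and the stress cytokine GDF15 fell by 3.24.

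Genes that address immune cells were mixed. Of 12 chemokines and NF-kB feedback genes 9 fell (6 with plain read totals), with CXCL8 from 84.9, 72.8 and 62.3 to 4.66, 1.79, 5.46 and 2.79 FPKM (19.9-fold lower, -4.06, SE 0.37, adjusted p = 1.14e-08) and CXCL1 by 2.13, and CCL28 alone rose (1.41, named after its value was seen). B2M, the light chain of class I molecules, which present peptides to T cells, had 29.8 to 40.2 FPKM in naive and 21.3 to 30.3 in treated libraries, which overlap. Its change of -0.40 lost the call with plain read totals (-0.16, adjusted p = 0.298) and without hHGF-NSG naive replicate 1 or 2 weeks replicate 3 (-0.29 and -0.31). Among the 11 class I genes tested, 1 rose and 3 fell (5 and 2 with plain read totals). Of 16 interferon-induced genes 6 rose and 3 fell (8 and 2 with plain read totals), beside 27.5 and 26.6% of all tested genes. IFI6 varied widely within the treated group, with 75.1, 32.3, 22 and 39.5 FPKM against 9.13, 9.85 and 16.4 (1.66, SE 0.46, adjusted p = 0.00442). CLU, which encodes the extracellular chaperone clusterin, went up from 1.07, 0.812 and 1.1 to 32, 33.5, 34.7 and 42.3 FPKM (35.9-fold). Among the 16 clock genes 5 rose and 6 fell. BHLHE40, a clock repressor that low oxygen also induces, fell 20.3-fold. PER2 showed the division of the treated libraries seen for DUSP6, with 17.4 and 25.3 FPKM in replicates 1 and 3 and 12.4 and 10.7 in replicates 2 and 4.

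The most abundant genes that fell were calcium-binding S100 proteins, GAPDH and thymosin. S100A6 went from 14786, 10956 and 11656 to 5256, 3130, 3502 and 4742 FPKM (3-fold lower). S100A14, S100A16 and S100A10 fell by 1.57, 1.82 and 1.25, and TMSB10, which binds actin, by 1.59. Beside FOXJ1, CCNO and NKX2-1 the most abundant risers were galectin 3 (LGALS3), from 192, 161 and 154 to 421, 304, 304 and 393 FPKM, the selenium-binding protein SELENBP1, from 82.6 to 85.4 to 299 to 339, and MT-ND3.

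The comparison between hosts asked whether human HGF changed this response. No gene passed in the test of the difference in response between hHGF-NSG and NSG hosts (0% of 16029, smallest adjusted p 0.169 with limma and no call with limma voom), and 859 genes (5.36%) had an unadjusted p under 0.05. Between the treated groups themselves no gene passed either (smallest adjusted p 0.475, none with voom, 681 genes or 4.25% at an unadjusted p under 0.05). The median SE of a difference in response was 0.19. A p above the threshold does not show that the hosts act alike, and the intervals below bound the difference for single genes. The 2 responses use different control libraries. For MET the log2 change was -1.49 in hHGF-NSG and -1.20 in NSG, and the difference of -0.29 had a 95% interval from -0.57 to -0.01 (unadjusted p = 0.0455, adjusted p = 0.914). For FOXJ1 the changes were 4.70 and 4.43 and for DUSP6 -3.67 and -3.93 (differences of 0.28 and 0.26, unadjusted p = 0.27 and 0.458). Of the 20 ERK genes 2 had an unadjusted p under 0.05, and the median difference of that list was 0.19. Both fell less in hHGF-NSG: SPRY1 (-1.13 against -1.79, unadjusted p = 0.00444) and SPRY2 (-0.90 against -1.33, unadjusted p = 0.00337). They were named after their values were seen, and neither passed the adjusted test.

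The gene nearest to a call was the glucose transporter SLC2A3, whose fall was larger by 0.84 in hHGF-NSG (95% interval -1.14 to -0.54, unadjusted p = 1.06e-05). NSG libraries had 7.26, 5.65, 6.96 and 5.82 FPKM when naive and 0.139, 0.0287, 0.0255 and 0 after 2 weeks. The naive libraries of the hosts did not overlap and the treated ones were near 0 in both, so the difference lies in the naive level. Without the filter on low values, which changes the genes fitted together, SLC2A3 passed (adjusted p = 0.0423). BPIFA1, a secreted airway defence protein, rose in NSG from 4.1 to 7.71 FPKM to 13.2 to 24 and in hHGF-NSG had 10.9, 8.12 and 7.9 against 11.6, 9.94, 10.7 and 13.7 (difference -1.18, 95% interval -1.73 to -0.64, unadjusted p = 0.000198, adjusted p = 0.405). The nucleolar gene GNL3 fell by 1.03 in hHGF-NSG and by 0.51 in NSG. The smallest p for a difference in the other direction, all above the adjusted threshold (adjusted p of 0.405 to 0.659), belonged to ZNF750, an epithelial differentiation factor (log2 change of 1.15 in hHGF-NSG and 0.42 in NSG), AGBL5, a tubulin-modifying enzyme (1.37 and 0.89), and C1orf210 (0.25, not called, and -0.48). In hHGF-NSG both BPIFA1 and C1orf210 rose with plain read totals (0.55 and 0.47). C1orf210 also rose when rescaled by median ratio (0.27) and without hHGF-NSG naive replicate 1 or 2 weeks replicate 3 (0.36 and 0.32). Among the smallest p between the treated groups were those of SIK1, a kinase, with 4.22, 3.11, 4.84 and 2.43 FPKM in hHGF-NSG and 1.37 to 1.52 in NSG (0.90, SE 0.17, adjusted p = 0.475), and of DTX4, a Notch regulator, with 20.4 to 24.9 against 26.8 to 30.8 (-0.38, SE 0.08). SIK1 has a near-identical copy, SIK1B, so its level is uncertain.

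Mesenchymal genes fell further in hHGF-NSG by their medians, -1.79 against -1.15 in NSG, without any single gene passing the adjusted test. Of the 11 tested, 5 had an unadjusted p under 0.05 for the difference in response, beside 5.36% of all genes. The list was noticed in these data and its genes move together, so this is a description. PLAU, from another list, had 24.9, 7.54, 26.4 and 25.2 FPKM in naive and 3.18, 5.19, 5.49 and 4.39 in treated NSG libraries, and fell by 3.32 in hHGF-NSG and by 1.86 in NSG (difference -1.46, 95% interval -2.44 to -0.48, unadjusted p = 0.00555, adjusted p = 0.752). For KRT17 the NSG libraries had 80.8, 9.9, 88.1 and 81.5 FPKM when naive and 9.25 to 18.6 when treated, and the changes were -3.99 and -1.78. The spread of the naive libraries moved with these values: hHGF-NSG naive replicate 3 was the highest of its group in PLAU, KRT17, VIM, FN1 and TNC, and NSG naive replicate 2 the lowest of its group in PLAU, KRT17, FN1 and TNC. The part of these libraries in the difference was measured by leaving them out. Without hHGF-NSG naive replicate 3 the difference was -1.24 for PLAU, -1.74 for KRT17 and -0.57 for VIM, and 3 of the 11 mesenchymal genes had an unadjusted p under 0.05. Without NSG naive replicate 2 it was -1.05 for PLAU and -1.47 for KRT17, and 5 did. The library labelled NSG naive replicate 1 had human HGF at 0.32 FPKM, close to the highest of these 7 hHGF-NSG libraries (0.301), where the other naive NSG libraries had at most 0.0061. Without it no difference in response was called either, and SLC2A3 had an adjusted p of 0.0539.

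**Figure D4:**
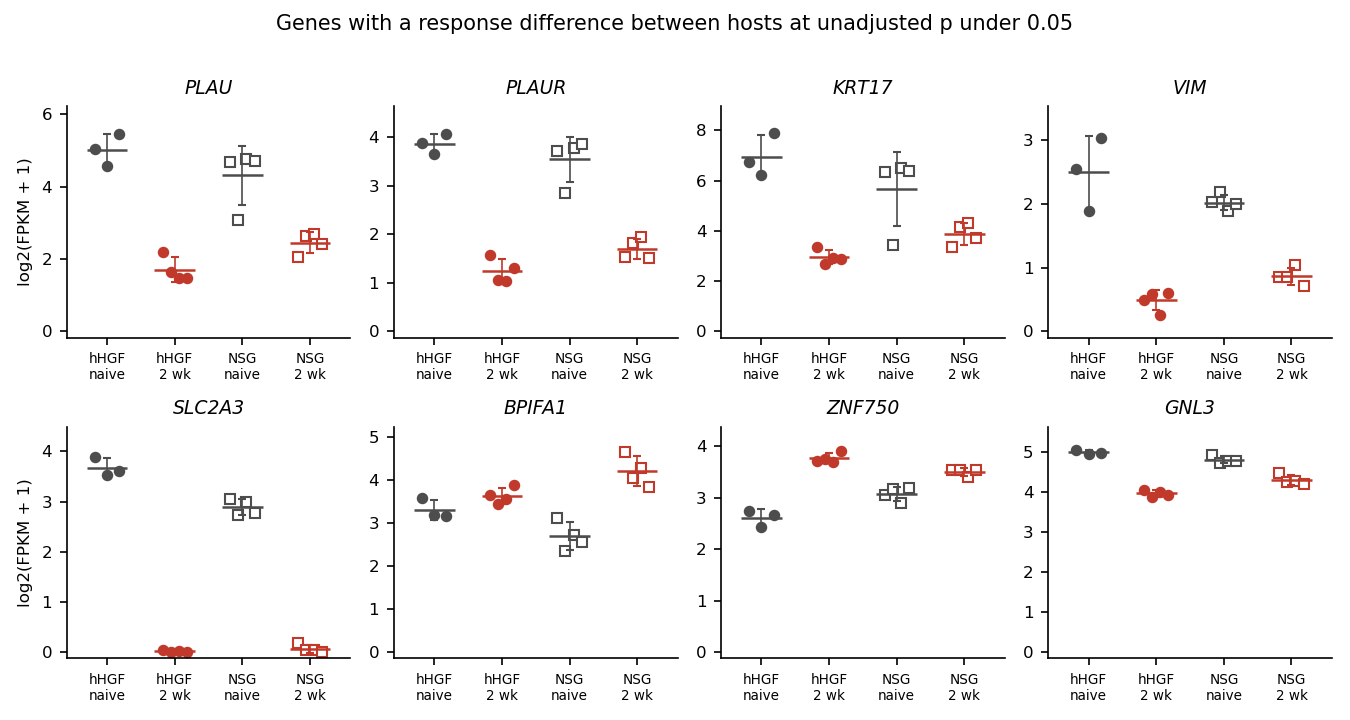
Level of 8 genes in each library as log2(FPKM + 1), with hHGF-NSG libraries as filled circles and NSG libraries as open squares, naive in grey and 2 weeks of alectinib in red, the mean as a bar and the SD as a whisker. None of the 8 differences in response passed the adjusted test. NSG naive replicate 2 lies below its group in PLAU, PLAUR and KRT17.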

How the data were processed

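RNA-seq libraries of whole xenografts had been split into human and mouse genes before deposit, and only the human table was tested. The deposited values are FPKM. The submitters' processing notes name DESeq2, GRCh38, hg38 and mm10, and for aligner and annotation nothing is given in the sources used here. All values above 0 came out as whole reads within 0.05 reads (100% of human and of mouse values), which showed that the authors had scaled library sizes. These were 0.877 to 0.937 times the plain totals in naive and 1.035 to 1.111 times in treated libraries.

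Genes with at least 1 FPKM in at least 3 samples were fitted with limma 3.58.1 (R 4.3.3) on log2(FPKM + 1), with 6 group means over all 22 libraries and a mean-variance trend. P-values were adjusted after Benjamini and Hochberg at 0.05. The fit was also run on simulated counts, with independent genes and the same dispersion for all. That run does not speak for the spread between the real libraries. Values in FPKM are per library and folds are ratios of mean FPKM. Human reads per library are the depth, and floors (3 reads per library) cover counting error only.

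Genes named in the text are protein coding with a unique symbol: the 12 per direction with the largest called change without overlap at a mean of at least 5 FPKM, the 6 per direction most abundant among those called at 2-fold, the 3 per direction with the smallest p in each host comparison, and key or most changed members of the gene lists. Not all of them are printed, and some items are not reported here. The members and lists were chosen with earlier results of these data known.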

Additional observations from a re-analysis of the deposited data

Results flagged for a closer look

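Of 197 genes screened in the 4 treated libraries, 11 had 1 library whose gap to the nearest other exceeded Dixon's 95% limit as a share of the group's range of log2(FPKM + 1), and chance alone marks about 5% of groups. CDC20B had 117 FPKM in treated replicate 2 and 97.6 to 99.5 in the others. Treated replicate 3 was low in CDH1 (49.6 against 57.9 to 58.7 FPKM), HEY1 (4.72 against 7.32 to 7.4) and MYBL2 (1.7 against 2.55 to 2.65). Treated replicate 4 was high in TK1 (11.8 against 8.36 to 8.67) and low in SASS6 (2.01 against 2.61 to 2.68). Treated replicate 1 was high in AGR3 (13.9 against 9.08 to 9.71) and low in CCL28 (2.17 against 4.14 to 4.57). GMNC and SPAG6, at 0.0148 FPKM in 1 library each, and PDGFRB, at 0.00849 in 1, were listed at 0 in the other treated libraries.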

How the results depend on the processing

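The count of 8673 genes called in hHGF-NSG tumours stayed between 7791 and 9920 over 14 other settings, with 7791 to 8307 when 1 library was left out. Plain read totals and limma voom on the recovered reads were added after seeing the data. No paired samples are named, and same-numbered samples did not deviate together (r of 0.01, 0.01 and -0.02). With the replicate number as a block, 8504 genes were called, and no gene was called in either host comparison. Without the filter on low values 9 genes were called for the difference in response and 2 between the treated groups. Leaving out 1 library gave 0 calls for the difference in response and 0 to 1 between the treated groups, the 1 call arising without NSG 2 weeks replicate 2 or without hHGF-NSG 2 weeks replicate 4.

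Call and sign were followed over the settings for 185 of the genes named with a test, and 153 kept both in all settings run. Those that changed sign were never called: with plain read totals DNAH2 was at 0.04, E2F4 at 0.16, KIF3B at 0.07, ST14 at 0.12 and P4HA2 at 0.20. P4HA2 was at 0.08 and 0.03 without hHGF-NSG naive replicate 3 and 2 weeks replicate 2, DNAAF5 at -0.06 without naive replicate 2, and SPINT2 at -0.04, -0.13, -0.03 and -0.04 without naive replicates 1 and 2 and 2 weeks replicates 1 and 4. Over all left-out libraries the range was -0.06 to 0.12 for DNAAF5, -0.09 to 0.08 for P4HA2, -0.13 to 0.21 for SPINT2, -0.22 to 0.03 for ST14 and -0.08 to 0.22 for KDR, which was at -0.04 with the replicate block. The cause was not tested. The planned edgeR fit was not run, since the deposited unit is FPKM. Groups of 3 and 4 libraries, with a median SE of 0.19 for a difference in response, limit what the host comparison can detect.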
